A study of Rattus norvegicus with 8 samples.

Results

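Neurotrophic factors and their receptors were followed as 9 genes of 12765 named genes in the deposited expression table: 5 secreted ligands (Bdnf, Ntf3, Gdnf, Artn and Shh) and 4 receptor genes (Ngfr, Gfra1, Gfra3 and Ret). A probe was assigned to a gene through the accession it carries, and the probe with the highest mean over the samples stood for the gene. RNA was measured on 8 one-colour arrays, 1 for each of 8 groups, so no difference can be set against a spread between replicates and none has a p-value. In adult female Sprague-Dawley rats the left sciatic nerve was transected, and the distal and the proximal segment were taken on day 1 beside the right, contralateral nerve, whose label mentions a PBS injection site. Spinal cord was taken at day 5 and labelled as dorsal hemisection or as C-level control. For the cord, the sample label counts days from an injection whereas the protocol counts them from the injury, so what these animals received is not settled, and both samples also differ in the piece of cord. Tissue of 3 animals was pooled for every nerve or cord array. Primary Schwann cells, the glia that wrap and myelinate peripheral axons, came from sciatic nerves of newborn pups, were freed of fibroblasts and grown with serum, pituitary extract and forskolin, an activator of adenylyl cyclase. These cultures received 5 µg/ml of S100A8/A9, a complex of calcium-binding proteins abundant in neutrophils, for 1 h or 24 h, or no stimulation. The single unstimulated culture was collected at 24 h, so for the culture of 1 h stimulation and time cannot be told apart.

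Neurotrophins such as brain-derived neurotrophic factor (Bdnf) and neurotrophin 3 (Ntf3) act through Trk receptor kinases and through the shared receptor p75, encoded by Ngfr. Ligands of the GDNF family bind a GFRalpha protein held at the membrane by a lipid anchor, and the pair then engages the receptor kinase Ret: Gfra1 is the main co-receptor of Gdnf and Gfra3 that of artemin (Artn). Sonic hedgehog (Shh) binds Patched and releases Smoothened, which acts on the Gli transcription factors. After nerve injury Schwann cells are known to raise Gdnf, Shh, Bdnf and Ngfr while they lose myelin genes.

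Samples are named by the column headings of the authors' table, because most scanner files are filed under a different sample. Every column had a scan whose probes it ranked almost identically (rank correlation of 0.99999 or more, against 0.993 or less for any further scan), and in 7 of 8 cases that scan was filed under a sample other than the column's. All 7 of these cases cross tissues: the scans filed under both cord samples, for example, rank as columns of Schwann cell cultures, in which the neuron markers had medians of 6.09 and 6.32, against 13.19 and 13.77 in the columns headed cord. An exchange of samples within 1 tissue was not tested. Values are log2 units of the authors' table, in which every column has a median of 8.03. A value is called dim where no more than 50% of the spots of the probe were well above background on the matching scan. From 65.1% to 75.8% of the probes in the table were well above background on a given array. Differences are log2 ratios, the error after ± is that of replicate spots on the arrays and covers no biological variation, and a gene counts as higher or lower from a 2-fold difference (a log2 ratio of 1). Where 1 of both arrays was dim, the ratio is a bound against the higher of the dim value itself and the lowest well-measured signal of that array. No ratio is given where both arrays were dim, or where the well-measured value did not exceed that limit. Levels of different probes are not comparable with each other. In whole tissue, more cells of a type and more RNA per cell cannot be told apart. Under the column headings, the neuron markers had median levels of 6.09 to 8.83 outside the cord. Their medians hide a mixed list in culture. In unstimulated Schwann cells 4 of 8 neuron markers were higher and 2 lower than in contralateral nerve. There Uchl1 stood at 15.11 and Nefm at 12.85, while Snap25 was dim at 2.41. At least 9 of 10 Schwann cell markers were well above background in all 8 samples, cord included (medians of 12.69 and 11.68), so this list does not set nerve and cultures apart from cord. The macrophage markers had medians of 5.28 to 6.05 in the cultures and of 10.24 to 13.84 in the tissues.

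RefSeq promoter windows (250 bases before to 50 after the gene start, assembly GRCr8) were used for 7 of the 9 genes, all but Ngfr and Shh. The windows of Gdnf, Gfra1 and Gfra3 are printed because this ligand and both co-receptors are among the genes that the results turn on. Capitals mark the matches to the 7 motifs searched on both strands. These were the full CRE TGACGTCA and its part TGACG, which overlap, the AP-1 motif TGANTCA, the SOX forms ACAAAG and ACAATG, the GC box GGGCGG, and the TATA box TATAAA. The window of Gdnf lies at chr2:58621077-58621376 on the plus strand, Gfra1 at chr1:267555762-267556061 on the minus strand and Gfra3 at chr18:26600176-26600475 on the minus strand, and each window is printed in the direction of its gene.
Gdnf: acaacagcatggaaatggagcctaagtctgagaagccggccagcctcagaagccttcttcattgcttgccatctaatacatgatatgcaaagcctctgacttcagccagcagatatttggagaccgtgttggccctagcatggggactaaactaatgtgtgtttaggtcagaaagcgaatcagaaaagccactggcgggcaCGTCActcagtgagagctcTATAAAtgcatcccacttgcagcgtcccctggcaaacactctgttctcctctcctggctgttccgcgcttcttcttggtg
Gfra1: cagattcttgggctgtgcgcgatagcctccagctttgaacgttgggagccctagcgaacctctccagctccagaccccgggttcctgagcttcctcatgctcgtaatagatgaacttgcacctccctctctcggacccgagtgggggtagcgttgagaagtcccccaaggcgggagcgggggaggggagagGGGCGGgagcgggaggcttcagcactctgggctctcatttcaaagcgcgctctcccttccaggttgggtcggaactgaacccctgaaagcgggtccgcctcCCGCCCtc
Gfra3: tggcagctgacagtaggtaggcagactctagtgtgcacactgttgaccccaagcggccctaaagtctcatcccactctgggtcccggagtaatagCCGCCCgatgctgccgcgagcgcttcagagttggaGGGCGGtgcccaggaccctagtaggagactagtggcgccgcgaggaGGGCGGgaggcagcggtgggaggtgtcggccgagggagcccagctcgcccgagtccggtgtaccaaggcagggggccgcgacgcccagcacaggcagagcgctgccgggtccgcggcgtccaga
The Gdnf window held a TATA box 30 bases before the start and a reverse TGACG 49 bases before it. The Gfra1 window held GC boxes at -59 and 42 from the start, and the Gfra3 window held them at -155, -120 and -74. These letters are common: GGGCGG occurred in 33.1% of 33469 rat windows of this length, TGACG in 21.2% and TATAAA in 14.2%. TGANTCA (7.33% of windows), TGACGTCA (1.83%), ACAAAG (18.8%) and ACAATG (13.2%) were not matched in these 3 windows.

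**Figure D1:**
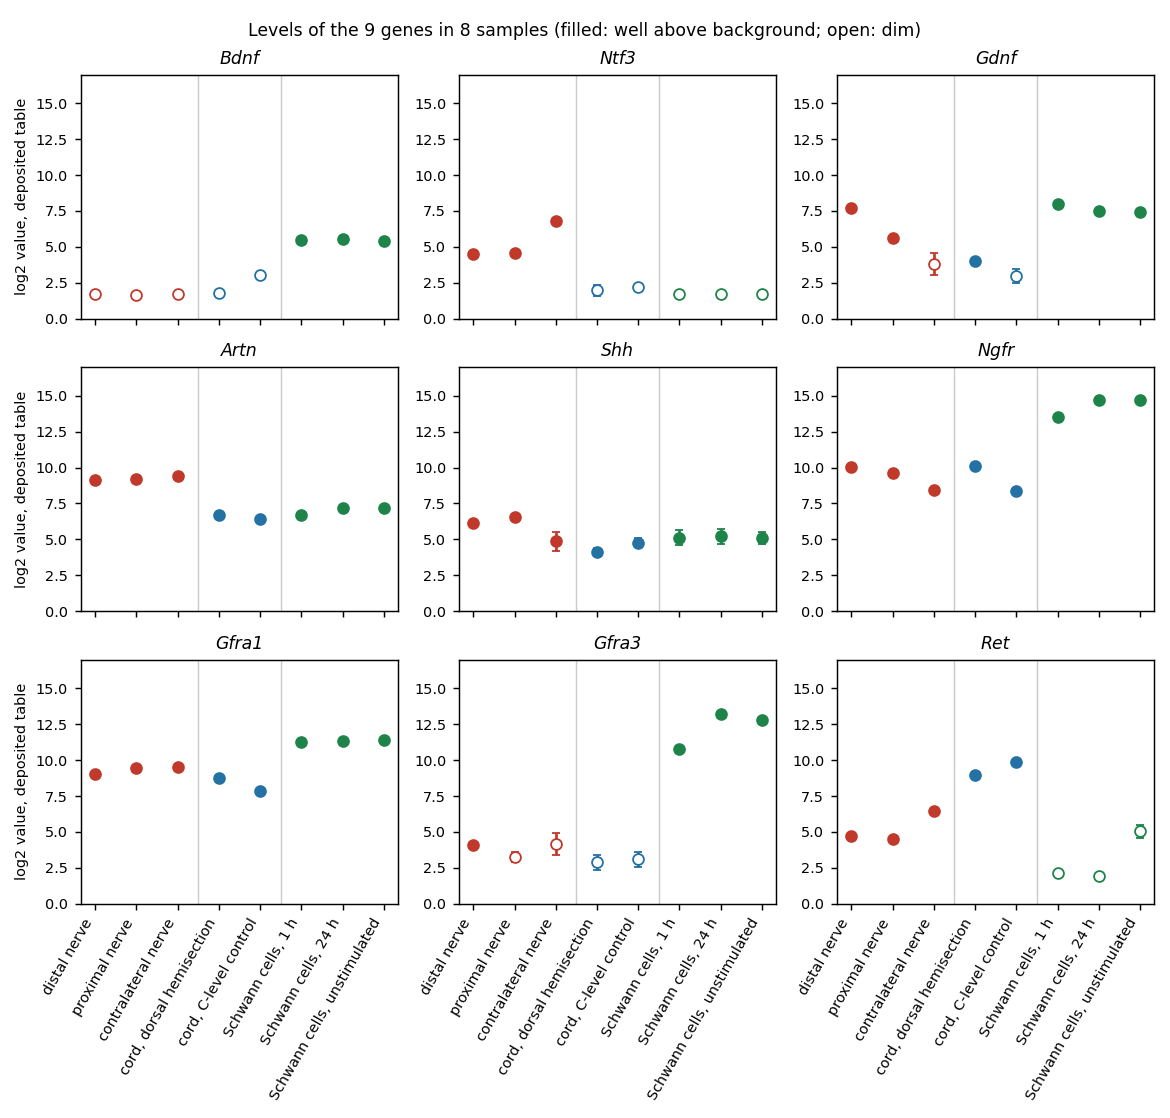
Log2 value of each gene (vertical axis, authors' deposited table) in the 8 samples (horizontal axis; red nerve, blue cord, green Schwann cells); filled points were well above background, open points dim, and bars are the error of replicate spots. Gfra3 stood between 10.77 and 13.21 in the cultures and at 4.17 or less elsewhere, while Ret was highest in the cord samples and dim in all cultures.

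The ligands differed in where they were measured at all. Bdnf (NM_012513), measured by 10 spots, stood at 5.49, 5.54 and 5.39 in Schwann cells at 1 h, at 24 h and unstimulated. It was dim in the other 5 samples, at 1.69 in distal, 1.65 in proximal and 1.70 in contralateral nerve, and at 1.76 in hemisection and 3.02 in C-level cord. Bdnf was therefore measured in culture only, close to the background there too, with single spots of 28.3 to 43.4 units of processed signal at 1 h, 19.3 to 46.3 at 24 h and 22.5 to 35.5 unstimulated. In C-level cord 1 of 9 spots was well above background.

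Ntf3 (NM_031073), a neurotrophin whose main receptor is TrkC, showed the opposite distribution. It stood at 4.53 in distal and 4.56 in proximal nerve, against 6.81 in contralateral nerve. It was dim in cord (1.98 and 2.22) and in all 3 cultures (1.74 each). The nerve samples therefore held the only measured levels, and the contralateral nerve the highest.

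Gdnf (NM_019139), the founding ligand of its family, was measured in 6 samples. It stood at 7.69 in distal and 5.62 in proximal nerve, against a dim 3.80 in contralateral nerve. In the cultures it was at 8.01 at 1 h, 7.50 at 24 h and 7.45 unstimulated, and in cord at 3.99 after hemisection, against a dim 2.96 at C level. The distal nerve thus came close to the cultures, and the contralateral nerve lay with the cord.

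Artn (NM_053397), a ligand known for its action on sensory and sympathetic neurons, was well above background in all 8 samples. It stood at 9.11, 9.21 and 9.39 in distal, proximal and contralateral nerve, at 6.70 and 6.40 in hemisection and C-level cord, and at 6.67, 7.15 and 7.20 in Schwann cells at 1 h, 24 h and unstimulated. All 3 nerve values lay above all others, with little difference among them. Shh (NM_017221) had the smallest span of the 9 genes, 2.44 log2 units, at 6.11, 6.59 and 4.86 in distal, proximal and contralateral nerve, 4.15 and 4.76 in cord, and 5.11, 5.21 and 5.10 in the cultures. It was highest in both segments of the cut nerve.

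Among the receptors, Ngfr (NM_012610) was the best measured, with 10 spots per array. It stood at 10.03 and 9.62 in distal and proximal nerve, against 8.43 in contralateral nerve, and at 10.09 in hemisection cord, against 8.38 in C-level cord. In culture it reached 13.50 at 1 h, 14.70 at 24 h and 14.73 unstimulated. Single spots of the distal nerve lay at 1110 to 1320 units and those of the contralateral nerve at 285 to 357. Those of Schwann cells at 1 h lay at 14900 to 16300 and those of the unstimulated culture at 27600 to 31400. These units are not scaled between arrays: distal nerve read 1240 units at a value of 10.03, hemisection cord 818 at 10.09. How many other probes have spots this far apart was not counted.

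Gfra1 (NM_012959) stood at 9.03, 9.43 and 9.55 in distal, proximal and contralateral nerve, at 8.79 and 7.86 in hemisection and C-level cord, and at 11.27, 11.35 and 11.37 in the cultures. Gfra3 (NM_053398) had the widest span of the 9 genes, 10.34 log2 units, which 127 of the 12765 genes reached. It stood at 10.77, 13.21 and 12.83 in Schwann cells at 1 h, 24 h and unstimulated, at 4.09 in distal nerve, and was dim in proximal (3.24) and contralateral nerve (4.17) and in cord (2.87 and 3.08). Both co-receptors were thus highest in culture, where the kinase they work with was dim.

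That kinase, Ret, was the 1 gene with several probes. Its main probe (NM_012643) stood at 8.97 in hemisection and 9.90 in C-level cord, at 4.73, 4.50 and 6.43 in distal, proximal and contralateral nerve, and was dim in Schwann cells at 1 h (2.13), at 24 h (1.96) and unstimulated (5.04). The probe of the variant NM_001110099 stood at 8.12 and 8.72 in cord and at 6.19, 5.92 and 5.84 in nerve, and was dim in the cultures (1.86, 2.81 and 2.40). Both probes put cord first and were dim in all cultures, but they ordered the nerve samples differently. The 5.04 of the unstimulated culture rested on 1 of its 2 spots, which read 149 units where the other read 3.50. A further Ret probe of 1 spot was well above background in cord only, at 4.73 and 4.95.

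**Figure D2:**
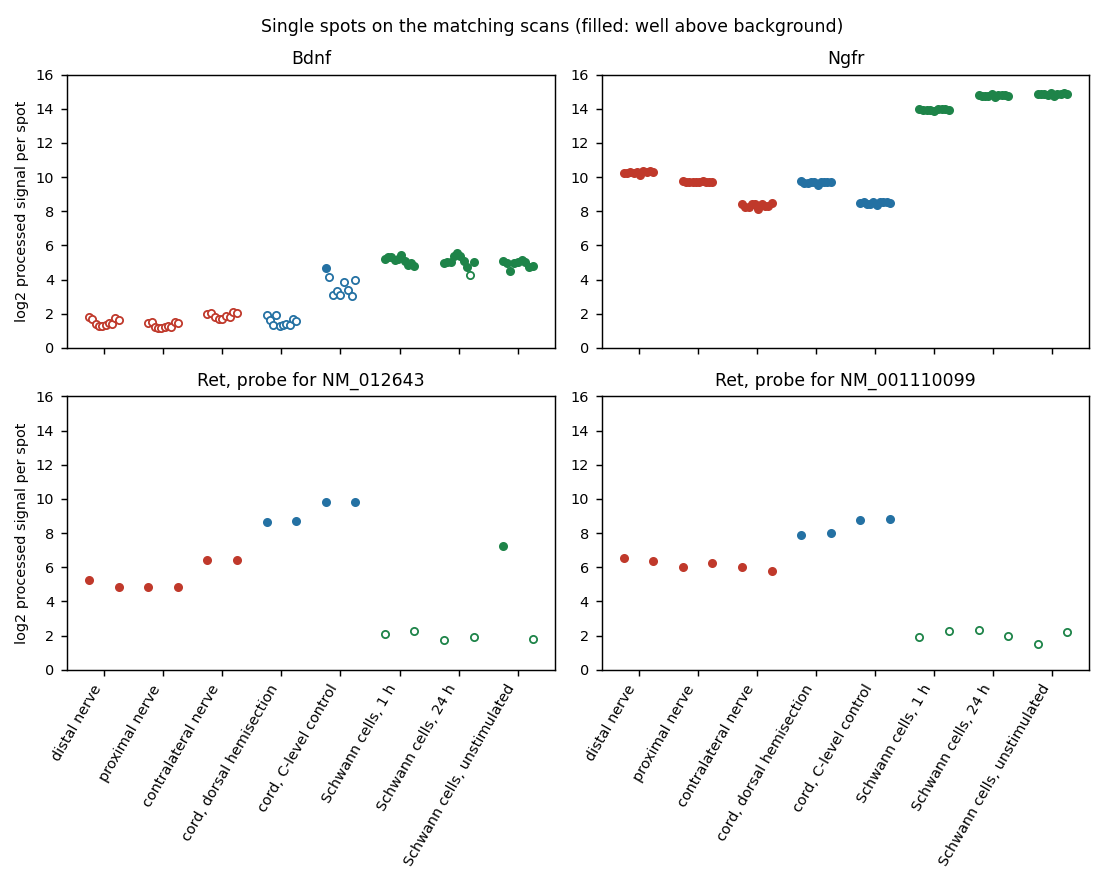
Log2 processed signal of single spots (vertical axis) on the scan that matches each sample (horizontal axis), for Bdnf, Ngfr and 2 Ret probes; filled spots were flagged well above background, open spots were not. The Ngfr spots of a sample lie within a narrow band, and the main Ret probe has 1 high and 1 low spot in unstimulated Schwann cells.

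Distal and contralateral nerve were compared for the segment cut off from its cell bodies. Of the 9 genes, 7 had a ratio: Gdnf, Ngfr and Shh were at least 2-fold higher and Ntf3 and Ret at least 2-fold lower, where 12.9% of 11764 genes with a ratio were higher and 14.3% lower. The log2 ratio of Gdnf was at least 3.81, that of Ngfr 1.60 ± 0.04 and that of Shh 1.25 ± 0.66. Ntf3 was at -2.28 ± 0.24 and Ret at -1.70 ± 0.30, but the other Ret probe was at 0.34. So the lower Ret depends on the probe, and the Shh difference is less than 2 of its spot errors. Normexp correction (offset 50) and quantile normalization of the matching scans left Ntf3 at -0.97, Shh at 0.41 and Ret at -0.65, all under 2-fold. Artn (-0.29) and Gfra1 (-0.53) differed by less than 2-fold. Bdnf, dim in both, had no ratio, nor had Gfra3, at 4.09 in distal nerve against a dim 4.17.

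Proximal and contralateral nerve were compared for the segment still joined to its cell bodies, against the same contralateral sample. Of 7 genes with a ratio Gdnf, Ngfr and Shh were higher and Ntf3 and Ret lower, where 10.8% of 11763 genes were higher and 12.0% lower. Gdnf was at least 1.75, Shh at 1.72 ± 0.67 and Ngfr at 1.18 ± 0.03. Ntf3 was at -2.26 ± 0.29 and Ret at -1.93 ± 0.35, with 0.08 for its other probe. Artn (-0.19) and Gfra1 (-0.12) were within 2-fold. The normexp and quantile setting left Ntf3 at -0.90, Gdnf at 0.54, Shh at 0.67 and Ret at -0.67.

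Between both segments of the cut nerve only Gdnf was called 2-fold apart. It was higher in distal than in proximal nerve by 2.07 ± 0.26, and 1 of 8 genes with a ratio thus stood beside 1.09% of 12035 genes higher and 1.7% lower. Ngfr was higher in distal nerve by 0.42, under 2-fold. Gfra3, dim in proximal nerve, was higher by at least 0.84, a lower bound that does not show whether it passed 2-fold.

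Cell type markers differed in the same samples. In distal nerve 6 of 7 neutrophil markers were higher than in contralateral nerve and 1 lower (median log2 ratio 3.62), and 7 of 10 skeletal muscle markers were higher and 1 lower (1.21). There 8 of 10 Schwann cell markers were lower (-2.03), 2 of 6 adipocyte markers were lower (-0.86), 9 of 12 fibroblast and perineurium markers were lower (-1.60) and 7 of 10 macrophage markers higher (1.68), against a median of 0.01 over all genes. In proximal nerve 6 of 8 neutrophil markers were higher (4.15), 6 of 10 Schwann cell markers lower (-1.51), 8 of 12 fibroblast and perineurium markers lower (-1.33), 6 of 6 adipocyte markers lower (-1.56), 6 of 10 macrophage markers higher (1.18) and 11 of 11 skeletal muscle markers higher (4.94). All 11 muscle markers were lower in distal than in proximal nerve (-3.66). The part of these cell types in the values of Gdnf, Ngfr, Ntf3, Shh and Ret was not tested.

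**Figure D3:**
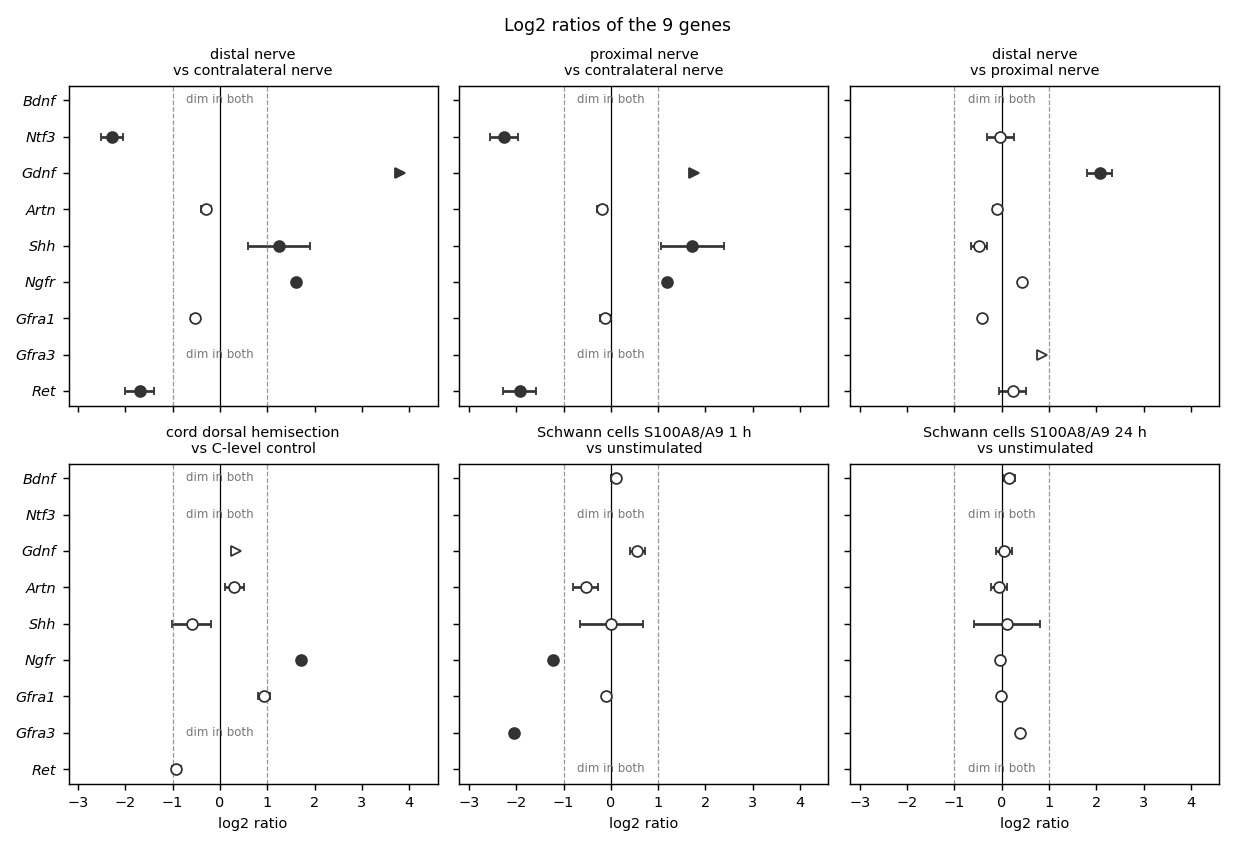
Log2 ratio of each gene (horizontal axis) in 6 comparisons; circles are measured ratios with the error of replicate spots, triangles are lower bounds, filled symbols are at least 2-fold, and dashed lines mark 2-fold. Gdnf, Ngfr and Shh lie to the right in both nerve comparisons with the contralateral sample, and Ngfr and Gfra3 lie to the left in Schwann cells at 1 h. Genes marked as dim in both have no ratio, although Gfra3 was well above background in distal nerve.

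Of the 6 genes with a ratio, 1 was called 2-fold apart between hemisection and C-level cord. Ngfr was higher in hemisection cord by 1.71 ± 0.03, where 9.7% of 11942 genes were higher and 9.04% lower. Gfra1 (0.93 ± 0.12) and Ret (-0.92 ± 0.09, -0.60 for the other probe of 2 spots) came close to 2-fold in opposite directions. Shh stood at -0.60 and Artn at 0.30, while Bdnf, Ntf3 and Gfra3 were dim in both samples. Gdnf was at least 0.33, a lower bound that does not show whether it passed 2-fold. Beside these values 9 of 10 macrophage markers were higher (median 1.52), 3 of 10 Schwann cell markers were higher (median of the list 0.04), and 5 of 9 neuron markers were lower (-1.01). Neutrophil markers were higher in 6 of 6 (2.07) and fibroblast and perineurium markers in 5 of 12 (0.90), while 7 of 11 skeletal muscle markers (-1.47) and 4 of 6 adipocyte markers (-2.04) were lower. Their part in the Ngfr and Ret values was not tested.

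Schwann cells at 1 h of S100A8/A9 had lower levels of 2 receptors than unstimulated cells. Gfra3 was lower by 2-fold or more, at -2.05 ± 0.06, and so was Ngfr, at -1.23 ± 0.02, so that 2 of 7 genes with a ratio were lower and 0 higher, where 1.12% of 10601 genes were lower and 1.41% higher. Gdnf was at 0.56 ± 0.16 and Artn at -0.53. Gfra1 was at -0.10, Bdnf at 0.10 and Shh at 0.01, and Ntf3 and Ret were dim. Of the Schwann cell markers 2 of 10 were lower, with a median of -0.59 over the list; their part in the Gfra3 and Ngfr values was not tested.

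At 24 h 0 of 7 genes differed from unstimulated cells by 2-fold, where 0.29% of 10702 genes were higher and 0.299% lower. Gfra3 stood at 0.38 ± 0.05, and the other 6 lay between -0.05 and 0.15. Between the stimulated cultures, Gfra3 was higher at 24 h than at 1 h by 2.43 ± 0.06 and Ngfr by 1.21; these 2 of 7 genes stood beside 1.52% of 10603 genes higher and 1.69% lower. Gdnf was at -0.52 and Artn at 0.47 there.

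Unstimulated Schwann cells against contralateral nerve gave 5 genes higher and 3 lower of 9, where 21.0% of 11694 genes were higher and 19.6% lower, around a median of 0.22 over all genes. Gfra3 was at least 8.66 higher, Ngfr was at 6.30, Gdnf at least 3.58, Gfra1 at 1.82 and Bdnf at least 1.51. Ntf3 was at most -2.53, Artn at -2.19, and Ret at most -1.38. Shh was at 0.24. Cell type, age and culture conditions cannot be told apart here. Bdnf stood at 0.54 and Ret at -0.16 with normexp and quantile normalization, and Bdnf at 0.74 with the matching scans at a common 75th percentile.

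Contralateral nerve against C-level cord gave 3 genes higher and 1 lower of 6, where 19.3% of 11982 genes were higher and 17.6% lower. Ntf3 was at least 3.15, Artn at 2.99 ± 0.20 and Gfra1 at 1.69, while Ret was at -3.47 ± 0.26. Ngfr (0.06) and Shh (0.11) were nearly level.

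Counts of further pathway genes stand beside the shares of all genes given above: 12.9% higher and 14.3% lower in distal nerve, 10.8% and 12.0% in proximal nerve, 9.7% and 9.04% in cord, and 1.41% and 1.12% in Schwann cells at 1 h. Of 19 other neurotrophin and Trk genes with a ratio, 0 were higher and 6 lower in distal nerve (median -0.80), and 0 higher and 4 lower in proximal nerve (-0.71). The receptor kinases Ntrk3, which binds neurotrophin 3 (-2.43 distal, -1.44 proximal), and Ntrk2, which binds Bdnf (-1.22 and -1.15), were lower, as were the sorting receptors Sorcs1 (-2.08 and -1.62) and Sort1 (-1.46 and -1.47). Ntf4 lay outside the value table and was well above background on 0 arrays. In cord 2 of 20 were higher, the adaptor Shc1 (1.47) and the p75-like Nradd (1.06), and 3 lower, Sorcs3 (-1.44), Bex3 (-1.15) and Sort1 (-1.09), which is close to the shares of all genes. In Schwann cells at 1 h 1 of 16 was lower, Ntrk3 (-1.13).

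The GDNF family list held differences both ways. In distal nerve 2 of 12 were higher, the stress cytokine Gdf15 (at least 3.20) and the Ret adaptor Dok5 (2.06 ± 0.93), and 5 lower: Ncam1 (-2.30), an alternative Gdnf receptor, Sdc3 (-1.84), the ligand neurturin Nrtn (-1.74), its co-receptor Gfra2 (-1.47) and the adaptor Dok4 (-1.60). In proximal nerve 2 were higher and 4 lower, with Nrtn at -1.58 and Gfra2 at -1.07. So Nrtn and Gfra2 were lower in the nerve samples in which Gdnf was higher. In cord Gdf15 was at least 4.91 and the phosphatase Dusp6 at 1.24, against Spry2 at -1.24, with 2 of 13 higher and 1 lower. In Schwann cells at 1 h 1 of 13 was higher, Etv5 (1.81 ± 0.07), a transcription factor known in mouse as a target of Ret signalling. Ret itself was dim in all cultures, and a link between Ret and Etv5 was not tested.

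Several hedgehog genes were lower in the cut nerve, in which Shh was higher. Of 13 with a ratio 0 were higher and 7 lower in distal nerve (median -1.03), and 0 of 12 higher and 5 lower in proximal nerve (-0.64). The list also held Gas2, which is not a hedgehog pathway gene. It is counted among the lower genes of both segments (8.78 distal and 9.55 proximal, against 10.75 contralateral). The receptor Ptch1 (-2.63 distal, -1.71 proximal), the transcription factor Gli1 (-2.14 and -1.56), both induced by the pathway, and the exporter Disp1 (-2.18 and -1.68) were lower. Desert hedgehog, Dhh, the ligand that Schwann cells make, was at -1.55 in distal nerve. In cord 3 of 14 were higher, led by Dhh (3.21 ± 0.22) and the secreted Scube1 (1.70). The 1 that was lower was Gas2 (8.03 in hemisection, 9.2 in C-level cord), so no hedgehog pathway gene of the list was lower there. Scube1 was the 1 of 12 that was lower in Schwann cells at 1 h (-1.50).

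In the list of other neurotrophic cytokines the cut nerve held nearly as many higher as lower genes. In distal nerve 8 of 28 were higher and 8 lower: the peptide Ucn2 (5.26), interleukin 6 (Il6, at least 4.56) and neuregulin 1 (Nrg1, at least 3.14) were higher, and ciliary neurotrophic factor Cntf (-1.71), its receptor Cntfr (-1.54) and Lifr (-1.83) were lower. In proximal nerve 7 were higher and 6 lower, with Il6 at least 6.47 and Inhba at 3.82. Il6 (-1.90) and Inhba (-1.77) were lower, and Btc (1.94) and Ucn2 (1.06) higher, in distal than in proximal nerve. In cord 8 of 26 were higher, among them Tgfb1 (2.15) and Igf1 (1.95), and 3 lower, among them Fgf9 (-2.18). In Schwann cells at 1 h 2 of 26 were higher, Igf1 (1.13) and Nrg1 (1.12).

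Enzymes and inhibitors that act on proneurotrophins, the uncut precursors, differed in both directions. In distal nerve 6 of 13 were higher and 1 lower (median 0.95): the matrix metalloproteinases Mmp9 (at least 2.45) and Mmp7 (at least 2.43) were among the higher and the convertase Pcsk6 was lower (-1.82). In proximal nerve 6 were higher and 1 lower (0.84), and in cord 5 higher and 2 lower (0.27), with Mmp7 at least 6.35. In Schwann cells at 1 h 1 of 12 was higher, Plau (1.19). The list of repair Schwann cell regulators also held Egr2, a factor of myelination rather than of repair. This list had 0 of 12 higher and 2 lower in either cut segment, near the shares of all genes. The lower ones were Sox10 (-1.48) and Olig1 (-1.09) in distal and Olig1 (-1.22) and Atf3 (-1.06) in proximal nerve. In cord 3 of 12 were higher, Atf3 (3.71), Egr2 (2.12) and Jun (1.41), and Atf3 was lower in Schwann cells at 1 h (-1.48).

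**Figure D4:**
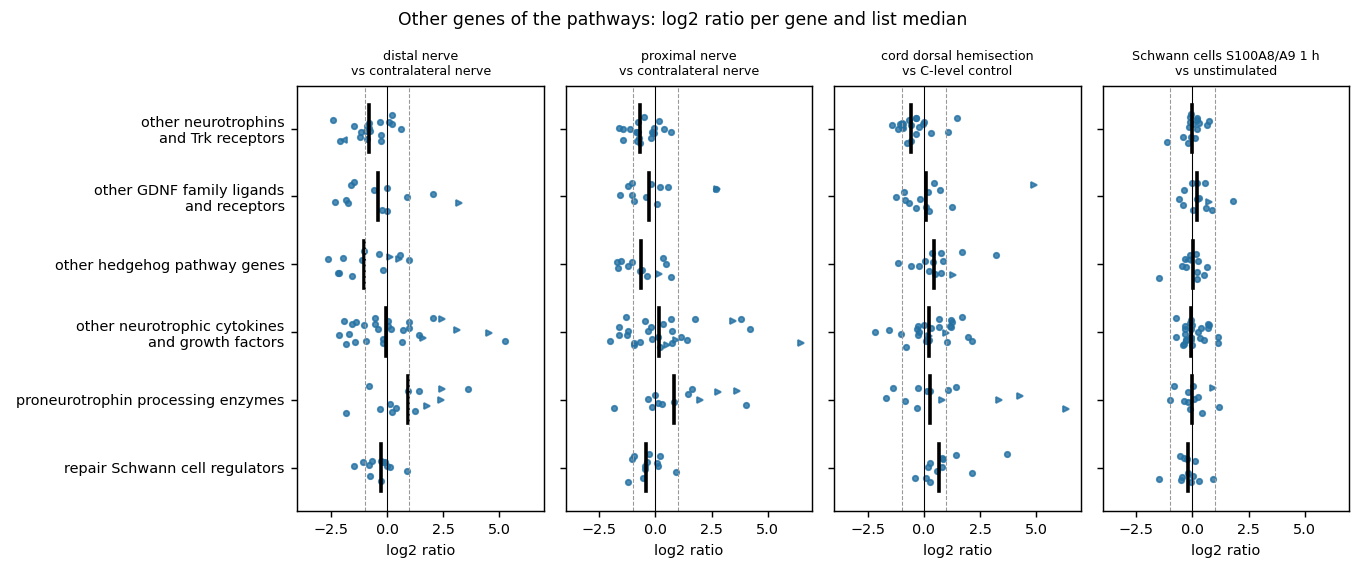
Log2 ratio (horizontal axis) of each further gene of 6 lists in 4 comparisons; circles are measured ratios, triangles bounds, black bars list medians and dashed lines 2-fold. The hedgehog list, in which Gas2 is included, has its median at -1.03 in distal nerve and 0.45 in hemisection cord.

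The genes whose pattern over the 8 samples was most like each of the 9 were named by Pearson r, as a description over samples that fall into 3 tissues. Artn ran with the mast cell proteases Mcpt1 (r = 0.9948) and Tpsb2 (0.9934) and with Gp9 (0.9937). Gfra3 ran with Elmod3 (0.9992), Fam222a and Cbx2, Ntf3 with Pdilt (0.996), Mmp27 and Gstm2, and Gfra1 with Ppp1r15a (0.9985), Plcd1 and Pcgf2. Ngfr ran with Tsc22d4 (0.992), Gdnf with Vcpip1 (0.9913), Bdnf with Adgrl2 (0.9911), Shh with Fahd1 (0.9806) and Ret with Clec2l (0.9762). The r of the first gene was thus lowest for Ret and Shh. The named genes are not the only close ones. Of 9563 genes, an r limit just under the 0.9806 of Fahd1 was passed by 74 for Gfra1, 72 for Gfra3 and 37 for Bdnf. It was passed by 29 for Ngfr, 22 for Ntf3, 11 for Artn, 6 for Gdnf, 1 for Shh and 0 for Ret. Dim values entered r, 5 of 8 for Bdnf and for Ntf3, 4 for Gfra3, 3 for Ret and 2 for Gdnf.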

How the data were processed

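Per the labels, 1 one-colour array was made for each of 8 groups. Spot intensity (linear) and background flags come from the deposited scanner output, for which the file headers give Feature Extraction version 10.7.3.1 and the submitters' processing notes 10.5. The deposited value table holds the authors' log2 values for 24894 probes and 44 controls; regression on the matching scans gave slopes of 0.94 to 1.09, while its offset, normalization method and choice of probes are not given in the sources used here. Values were taken by column heading, flags and spot errors from the scan that ranks as the column does. Probe accessions, stripped of versions, were looked up in a RefSeq gene table of GRCr8 (15213 of the 24894 probes matched), while the headers name build rn4, so array coordinates were not used.

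The analysis used Python 3.11.15 with pandas 2.3.3 and numpy 2.4.6, and R 4.3.3 with limma 3.58.1 for normexp (offset 50) and quantile normalization. A probe was well above background when over 50% of its spots were so flagged. A first run had used at least 50%, and the stricter rule was chosen after its results had been seen; both are reported. Spot errors used a probe's own spots or, with few, the pooled spread in 20 intensity bins. The 9 genes, the gene lists and the comparisons were chosen with earlier results of these data known. From each list, up to 5 genes per direction among those at least 2-fold apart could be named, and up to 3 genes by likeness, among genes well above background on at least 3 arrays that span 1 log2 unit. The ratio rule was tested on simulated data. The genes changed there lay too far above the floor to turn dim, so the bound rule was hardly tested on known changes. Alternatives were the scans as recorded or as matched, normexp, the mean of probes or another probe, no floor, both arrays well above background, and outlier spots kept. Some genes of the lists are not reported here by name. The number of arrays limits the precision.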

Additional observations from a re-analysis of the deposited data

How the results depend on the processing

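Of 28 ratios of the 9 genes that were at least 2-fold, over 9 comparisons, all 28 kept their sign when the matching scans were scaled to their 75th percentile (27 still at least 2-fold), with normexp and quantile normalization, called normexp from here (19), without a floor (28) and with at least 50% of spots as the flag rule (28). The mean of probes kept 27: Ret in distal against contralateral nerve was then at 0.13, and its other probe gave 0.34 there and 0.08 in proximal nerve. With the scans as filed 13 of 22 kept their sign. The 9 others were Ntf3 (0.60) and Ngfr (-0.06) in distal and Shh (-0.45) in proximal against contralateral nerve, Gdnf in distal against proximal nerve (-0.05), Gfra1 (-2.47) and Ret (5.30) in contralateral nerve against C-level cord, and Ntf3 (0.80), Artn (2.08) and Ngfr (-0.47) in unstimulated Schwann cells against contralateral nerve. All 7 scans filed under another sample cross tissues, so these values set scans of other tissues side by side; an exchange within 1 tissue was not tested.

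Counts of genes at least 2-fold apart depended on the setting. Each count as filed sets side by side 2 scans of which at least 1 ranks as the column of another sample. The scans filed as hemisection and C-level cord, for example, rank as the columns of unstimulated and 24 h Schwann cells. The cause of the shifts with the other settings was not tested. Distal against contralateral nerve had 3197, and 1993 with normexp; proximal against contralateral nerve had 2679, 5289 as filed and 1605 with normexp; distal against proximal nerve had 335, 4175 and 114. Schwann cells at 1 h against unstimulated had 269, 2543 as filed, 92 with normexp and 635 without a floor. At 24 h there were 63, 5042 as filed, 14 with normexp, 376 without a floor, 34 with both arrays well above background and 139 with the laxer flag rule. Between 24 h and 1 h there were 340, 4110 as filed, 128 with normexp and 803 without a floor. Hemisection against C-level cord had 2237, 77 as filed and 1269 with normexp. The split of higher and lower genes also moved, in distal against proximal nerve (131 and 204, against 80 and 237 at the 75th percentile and 26 and 88 with normexp), in Schwann cells at 1 h against unstimulated (150 and 119, against 42 and 50 with normexp) and at 24 h against 1 h (161 and 179, against 76 and 52 with normexp), and in unstimulated Schwann cells against contralateral nerve (2451 and 2291, against 1938 and 2713), where the median of all genes was 0.22, against 0.09 at that scaling. No paired analysis was possible because each group has 1 array, which leaves no spread to test; the labels do not say whether the nerve pools came from the same rats. Dim values limit what can be said of Bdnf outside culture, Ntf3 in cord and culture, and Ret in culture. The same holds for Gfra3 in cord and in proximal and contralateral nerve, and for Gdnf in contralateral nerve and C-level cord.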
